A study of Mus musculus with 13 samples.

Results

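CD4+ T cells that had been cultured with islet macrophages of streptozotocin-treated donors were compared with CD4+ T cells cultured with islet macrophages of buffer-treated donors, by bulk RNA sequencing. The comparison used the 9 co-culture libraries of the 13 libraries in the series, chosen by their treatment labels: 5 with macrophages of treated donors (STZ macrophages) and 4 with macrophages of buffer-treated donors (control macrophages). The 4 libraries of T cells without macrophages were left out, so that the error came from the co-cultures alone. The T cells in all 9 libraries were naive splenic CD4+ cells of female BDC2.5 mice on the NOD/ShiLtJ background (the line 1Doi/DoiJ with the transgenes TcraBDC2.5 and TcrbBDC2.5), which carry 1 transgenic T cell receptor and so do not stand for a mixed repertoire. Macrophage donors were NOD mice injected at 4 weeks of age with either 1 low dose of streptozotocin (STZ) or buffer. Their islets were taken 10 days later, at 5.5 weeks, and macrophages were enriched with magnetic beads. Co-culture lasted 96 hours, after which the T cells were sorted as live cells positive for CD45, Thy1.2 and CD4. The labels call the replicates biological and do not say whether donors were pooled, so p-values measure only the spread between these libraries. They also give a collection day as a batch: day 1 held control replicates 1, 2 and 4 and STZ replicates 1 and 5, and day 2 held control replicate 3 and STZ replicates 2, 3 and 4.

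Streptozotocin is a glucose analogue that enters beta cells through a glucose transporter and kills them by damaging DNA. Islet macrophages take up beta-cell material and present it, and BDC2.5 T cells recognise a beta-cell antigen, so the culture asks how macrophages from islets with beta-cell injury direct a diabetogenic T cell. An activated CD4+ T cell takes up more glucose, turns to glycolysis and biosynthesis under MYC and hypoxia-inducible factor 1 (HIF-1), gives up naive and homing genes, and makes the cytokines of the lineage it enters. T helper 17 cells make IL-17 and IL-22. Interferon-stimulated genes carry elements in their promoters that STAT and IRF factors bind.

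Library totals, in units of 1000000 estimated counts, were 30.6 to 61.3, and 18857 to 21014 genes had a count in a library. A level of 3 counts in 1 library corresponded to 0.0490 to 0.0980 counts per 1000000 (CPM), which covers counting error only. The libraries differed by the GC content of genes, within the groups and also between them. The median log2 fold change, STZ minus control, was -0.27 in the 10% of genes with the lowest GC content. It was 0.99 in the 10% with the highest. In the 10% of genes with the highest GC content, the median deviation from the mean of the libraries was 0.88 in STZ replicate 1 and 0.63 in STZ replicate 5 on the log2 scale, against -1.22 in control replicate 3 and -0.31 in control replicate 4. The first principal component, with 50.4% of the variance, separated STZ replicates 1 and 5 (scores of 115 and 91.9) from control replicate 3 (-111). Its part in the differences between groups was not tested beyond a refit with a GC correction, and most groups of genes below are given with that refit.

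**Figure D1:**
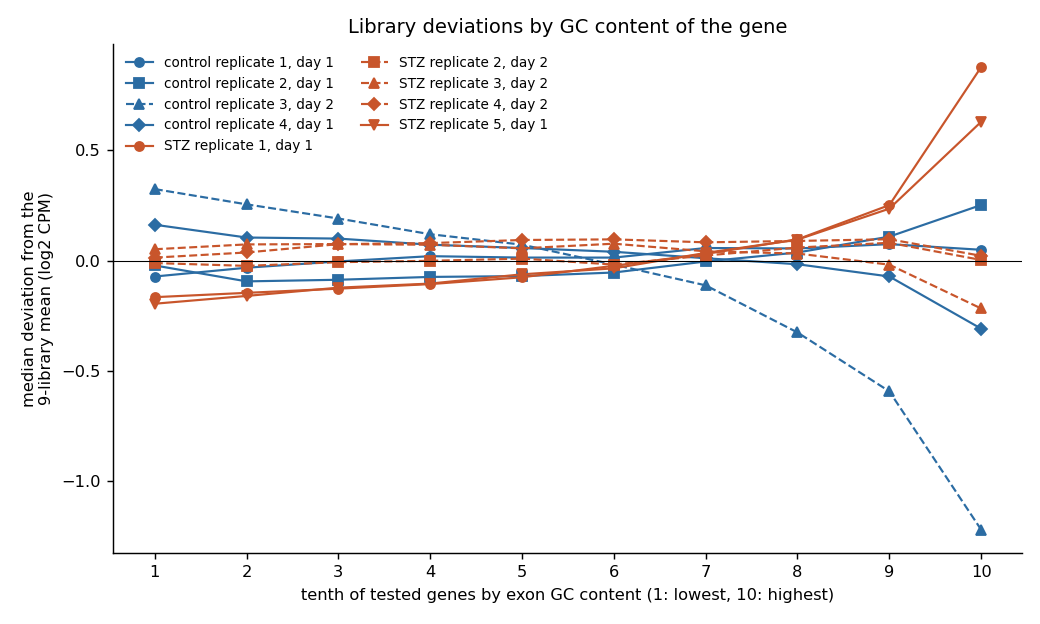
Median deviation of each library from the mean of the 9 libraries (vertical axis, log2 CPM) in 10 equal groups of the tested genes ordered by exon GC content (horizontal axis). Orange lines are STZ libraries, blue lines control libraries, solid lines day 1 and dashed lines day 2. In the group with the highest GC content STZ replicates 1 and 5 stood at 0.88 and 0.63, and control replicate 3 at -1.22.

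Of 14881 genes tested, 1498 were called higher and 1200 lower with STZ macrophages, which is 10.1% and 8.06% of the genes tested and 18.1% together (edgeR's quasi-likelihood test, adjusted for the day of collection, with a Benjamini-Hochberg adjusted p under 0.05 as the threshold). The genes called higher had a median log2 fold change of 1.57, and 1198 of them changed at least 2-fold. Those called lower had a median of -0.57, and 138 of them changed at least 2-fold. With the GC correction 1073 genes were called higher and 1693 lower (7.21% and 11.4% of the genes tested), so that the share of calls that were higher moved from 55.5% to 38.8%, and 965 of the higher and 977 of the lower calls were kept. The median GC content was 52.99% for genes called higher, 45.2% for genes called lower and 48.7% for all genes tested. The groups did not overlap for 1147 genes (7.71%), of which 353 were called higher and 404 lower.

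The count of called genes rested on single libraries. It was 585, 1667, 963 and 866 without STZ replicates 1, 3, 4 and 5, and 1189 and 1138 without control replicates 1 and 4. Without control replicates 2 and 3, and without STZ replicate 2, it was 3375, 3190 and 1804. A total of 500 genes, 235 higher and 265 lower, were called with all libraries, with the GC correction and in each of the 9 fits that left out 1 library. They are named the stable genes here. Each gene said below to have risen or fallen was among them unless a limit is given with it. Of the 85 genes described below that were called higher, 19 were above the highest control library in STZ replicates 1 and 5 only, with STZ replicates 2, 3 and 4 at or below it. They were Stat3, Gata3, Il3ra, Ndrg1, Myc, Junb, Sesn2, Mthfd2, Fasn, Fads2, Ckb, Zap70, H2-Q6, Ecm1, Tln1, Lmna, Gcn1, Vps37b and Galk1. In a fit that also held the 4 libraries of T cells alone, 24 genes were called higher and 27 lower, and without the day term 64 and 94.

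Genes were grouped into 60 functional lists with 1528 tested members, of which 461 were called. The counts of called members below are to be read beside the shares of all genes tested, 10.1% higher and 8.06% lower. HIF-1 targets, stress-response and serine enzymes, collagens, T helper 17 genes and glycolysis were among the lists in which most calls were higher. Interferon-stimulated genes, SLAM-family receptors, naive T cell genes, T cell receptor components, the proteasome and the cell cycle were among those in which most calls were lower.

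**Figure D2:**
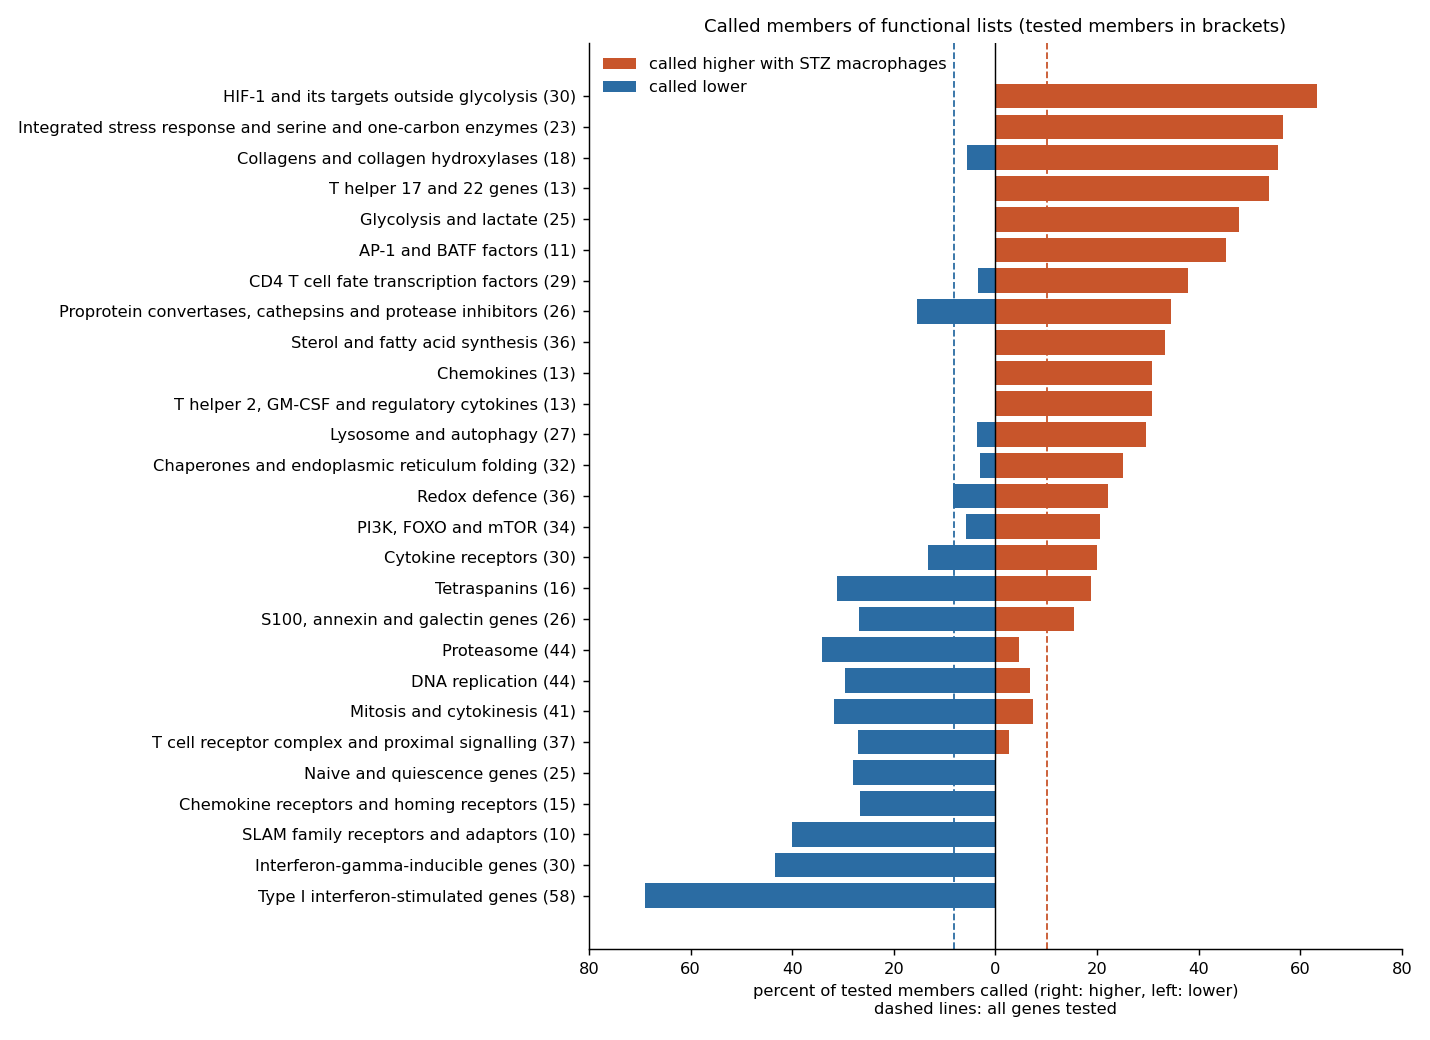
Percentage of the tested members of 27 functional lists that were called higher (orange, to the right) or lower (blue, to the left) with STZ macrophages, with the number of tested members in brackets. Dashed lines mark the share of all genes tested, 10.1% higher and 8.06% lower. Of the type I interferon-stimulated genes 69.0% were called lower, and of the HIF-1 targets 63.3% were called higher.

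Of 13 tested T helper 17 and 22 genes, 7 were called higher and none lower, 6 of the 7 were kept with the GC correction, and the list had a median log2 fold change of 1.65 against 0.06 for all genes tested. Without STZ replicate 1, 3 of them were called. Il22 (ENSMUSG00000074695.3, a protein-coding gene at chr10:118204942-118210047 of GRCm38), whose product acts on epithelial cells, was at 8.92, 12.1, 9.65 and 23.2 CPM in control replicates 1 to 4 and at 383, 47.5, 70.4, 224 and 411 CPM in STZ replicates 1 to 5. The groups did not overlap, and STZ replicates 1 and 5, of day 1, were the highest. The log2 fold change was 4.28 (SE 0.58, adjusted p = 0.00756). Il22 has a near copy in the mouse genome whose reads the authors' counting could have split, so its level is less certain than its direction. Il17a (ENSMUSG00000025929.4, chr1:20730905-20734496), the defining cytokine gene of the lineage, was at 0.588, 0.183, 0.862 and 0.244 CPM in the control libraries and at 8.19, 5.97, 7.66, 10.3 and 9.22 CPM in the STZ libraries. All 5 STZ libraries lay within a narrow band far above the controls, with a log2 fold change of 4.09 (standard error 0.46, adjusted p = 0.00385).

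Il1r1, the signalling receptor for interleukin 1 that T helper 17 cells use, rose from 1.18 ± 0.537 CPM (SD, n = 4) to 5.94 ± 3.17 (n = 5), a log2 fold change of 2.62. Il17f, the partner of Il17a, rose from 19.8 ± 9.1 to 99.3 ± 39.9 CPM (2.32). It lost its call without STZ replicate 1, at an adjusted p of 0.0524. Stat3, which carries the IL-6 and IL-23 signal, was called higher with a log2 fold change of 1.65, but it was at 426 and 381 CPM in STZ replicates 1 and 5 and at 57.3 to 65.4 CPM in the other STZ libraries, against 41.1 to 80.9 CPM in the controls. Its call ended with the GC correction (adjusted p = 0.0666) and held in 1 of the 9 fits without a library.

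Genes of other T helper lineages changed in part. Among 19 tested T helper 1 and cytotoxic genes 4 were called higher and 2 lower. Gzmc, a granzyme of activated killer and helper cells, rose from 14.9 ± 5.68 to 42.2 ± 6.65 CPM (log2 fold change 1.34, adjusted p = 0.00767) with no overlap. Gzma, another granzyme, rose by 1.79 and Il12rb2, the inducible chain of the interleukin 12 receptor, by 1.01. These were called in 5 and 6 of the 9 fits without a library. Il18r1, a receptor chain for interleukin 18, fell by 0.72 and the chemokine receptor gene Cxcr3 fell by 0.84 on the log2 scale. They were called in 4 and 1 of the 9 fits without a library, and without control replicate 3 they had adjusted p-values of 0.0574 and 0.147. The groups overlapped for Cxcr3. Ifng, the cytokine that defines T helper 1 cells, was at 1.34, 11.7, 39.9 and 11.2 CPM with control macrophages and at 24.1, 87.2, 86.0, 81.4 and 21.8 CPM with STZ macrophages. The ranges overlapped, and the log2 fold change of 1.34 did not pass the test (SE 0.52, adjusted p = 0.0938).

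Of 13 tested genes of T helper 2, GM-CSF and regulatory cytokines, 4 were called higher and none lower. Il24, a cytokine of the IL-10 family, rose from 18.4 ± 10.2 to 59.1 ± 25.9 CPM (log2 fold change 1.25), and Lif, an IL-6 family cytokine, from 124 ± 21.6 to 229 ± 32.5 CPM (0.84). Gata3, the T helper 2 factor, was called higher (1.57) but was at 77.5 and 69.3 CPM in STZ replicates 1 and 5 and at 11.6 to 15.6 CPM in the other STZ libraries, within the control range of 7.37 to 23.8. It was called in 7 of the 9 fits without a library, and without STZ replicate 1 its adjusted p was 0.0539. Il6 rose from a very low level, 0.136 ± 0.125 to 1.14 ± 0.744 CPM, and was called in 3 of the 9 fits without a library.

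Foxp3, the factor that defines regulatory T cells, did not pass the test over both days (log2 fold change -2.35, SE 0.90, adjusted p = 0.0920). It was at 101, 50.6, 11.6 and 54.9 CPM in the control libraries and at 5.51, 10.7, 17.3, 19.8 and 6.86 CPM in the STZ libraries. The 3 control libraries of day 1 were high, and control replicate 3, of day 2, was within the range of the STZ libraries. The log2 fold change was -3.48 on day 1 and 0.46 on day 2, a difference of 3.93 (adjusted p = 0.00625). Il2ra, the high-affinity interleukin 2 receptor chain that activated and regulatory T cells share, differed by -0.11 (adjusted p = 0.587).

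Chemokine genes were among the larger relative changes, from low levels. Of 13 tested chemokines 4 were called higher and none lower, and 3 were kept with the GC correction. Ccl22, which attracts CCR4-bearing T cells and is made by dendritic cells as well as activated T cells, was at 0.261 to 2.35 CPM in the control libraries. In STZ replicates 1 to 5 it was at 5.18, 19.7, 19.7, 30.1 and 3.83 CPM, a log2 fold change of 3.36 (standard error 0.31, adjusted p = 0.00146). Cxcl16, the ligand of CXCR6, rose from 0.239 ± 0.129 to 1.77 ± 0.371 CPM and Ccl2, a monocyte attractant, from 0.558 ± 0.642 to 3.53 ± 2.16 CPM. The groups did not overlap for any of these 3 genes. Myeloid cells also express all 3, and markers of macrophages at similarly low levels were higher in the STZ libraries (C1qc, 0.251 ± 0.14 to 3.09 ± 2.13 CPM). The part of macrophage RNA in the chemokine values was not tested.

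Costimulatory and cytokine receptors moved in both directions. Tnfrsf8, the receptor CD30 of activated T cells, rose from 4.67 ± 1.85 to 27.1 ± 9.45 CPM (log2 fold change 2.61), and Tnfsf9, the ligand of the costimulator 4-1BB, from 6.16 ± 2.93 to 14.9 ± 2.81 CPM (1.64). Of 16 tested genes of the TNF receptor superfamily 2 were called higher (12.5%) and 3 lower (18.8%), against 10.1% and 8.06% of all genes tested. Cd27, a receptor of resting T cells, was at 220, 201, 206 and 265 CPM in the control libraries and at 128, 101, 106, 93.2 and 125 CPM in the STZ libraries. Every STZ library was below every control library for Cd27, which fell by 0.92 (adjusted p = 0.00450). Tnfrsf14, which binds BTLA and LIGHT, fell by 0.89 and the death receptor gene Fas fell by 0.68 on the log2 scale. Of 30 cytokine receptors 6 were called higher and 4 lower, of which 4 and 3 were kept with the GC correction. Il1r2, a decoy receptor for interleukin 1, rose by 2.10, Tgfbr3, a co-receptor for transforming growth factor beta, by 1.74 and Il3ra, a receptor chain for interleukin 3, by 2.99. Il2rg, the chain shared by many interleukin receptors, fell by 0.69.

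Among 29 factors of CD4 T cell fate, 11 were called higher and 1 lower. With the GC correction 5 of the 11 were kept, and the list held 2 to 7 genes called higher in the fits that left out 1 library other than control replicate 3. Bhlhe40, a factor needed for cytokine production by helper T cells, rose from 200.1 ± 53.02 to 504 ± 40.0 CPM (log2 fold change 1.23, adjusted p = 0.00344). Zeb2, a transcriptional repressor, rose by 2.70. Vdr, the vitamin D receptor gene, rose by 1.92 and was called in 6 of the 9 fits without a library. Outside that list, Zbtb32, a repressor induced on activation, rose by 3.05 and Batf3, a partner of AP-1 that dendritic cells also use, by 3.33.

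Of 25 tested genes of glycolysis and lactate export 12 were called higher and none lower, with a median log2 fold change of 1.32, and of 30 HIF-1 targets outside glycolysis 19 were called higher and none lower (median 1.52). With the GC correction 10 and 15 of those calls were kept. In the fits that left out 1 library the HIF-1 list held 7 and 8 called genes without STZ replicates 1 and 5, 10 to 12 without control replicates 1 and 4 or STZ replicate 4, and up to 24. The glycolysis list held 10 or 11 without any other library and 19 without control replicate 3.

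Slc2a1 (chr4:119108711-119137983), the main glucose transporter gene of T cells, was at 127, 151, 67.9 and 146 CPM in control replicates 1 to 4 and at 362, 288, 249, 265 and 379 CPM in STZ replicates 1 to 5. The groups were clearly apart, with a log2 fold change of 1.61 (standard error 0.14, adjusted p = 0.00127). Slc2a3, a high-affinity transporter, rose from 64.3 ± 13.1 to 246 ± 167 CPM (2.14), more on day 1 (2.60) than on day 2 (1.46, adjusted p of the difference 0.00678). Slc16a3, which exports lactate, was at 44.2, 100, 6.08 and 25.3 CPM in the control libraries and at 563, 153, 50.04, 139 and 563 CPM in the STZ libraries. STZ replicate 3 lay within the control range, and the log2 fold change with the day term was 3.64 (SE 0.54, adjusted p = 0.00894).

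Between these steps, Hk2, the hexokinase that traps glucose, rose from 17.9 ± 7.11 to 74.9 ± 36.6 CPM (log2 fold change 2.36). Pfkfb3, which makes the activator of phosphofructokinase, rose from 18.7 ± 2.38 to 40.8 ± 14.1 CPM (1.29), and Gpi1, the isomerase of glucose phosphate, from 355 ± 61.3 to 591 ± 38.8 CPM (0.85). Pgm1, a HIF-1 target that links glucose to glycogen, rose by 1.80 (SE 0.13, adjusted p = 0.000739). Galk1, the first enzyme of galactose use, rose by 3.47. Aldoc, an aldolase, was not called over both days (1.49, adjusted p = 0.0536). It was at 48.9 and 48.2 CPM in STZ replicates 1 and 5 and at 7.51 to 11.7 CPM in every other library.

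**Figure D3:**
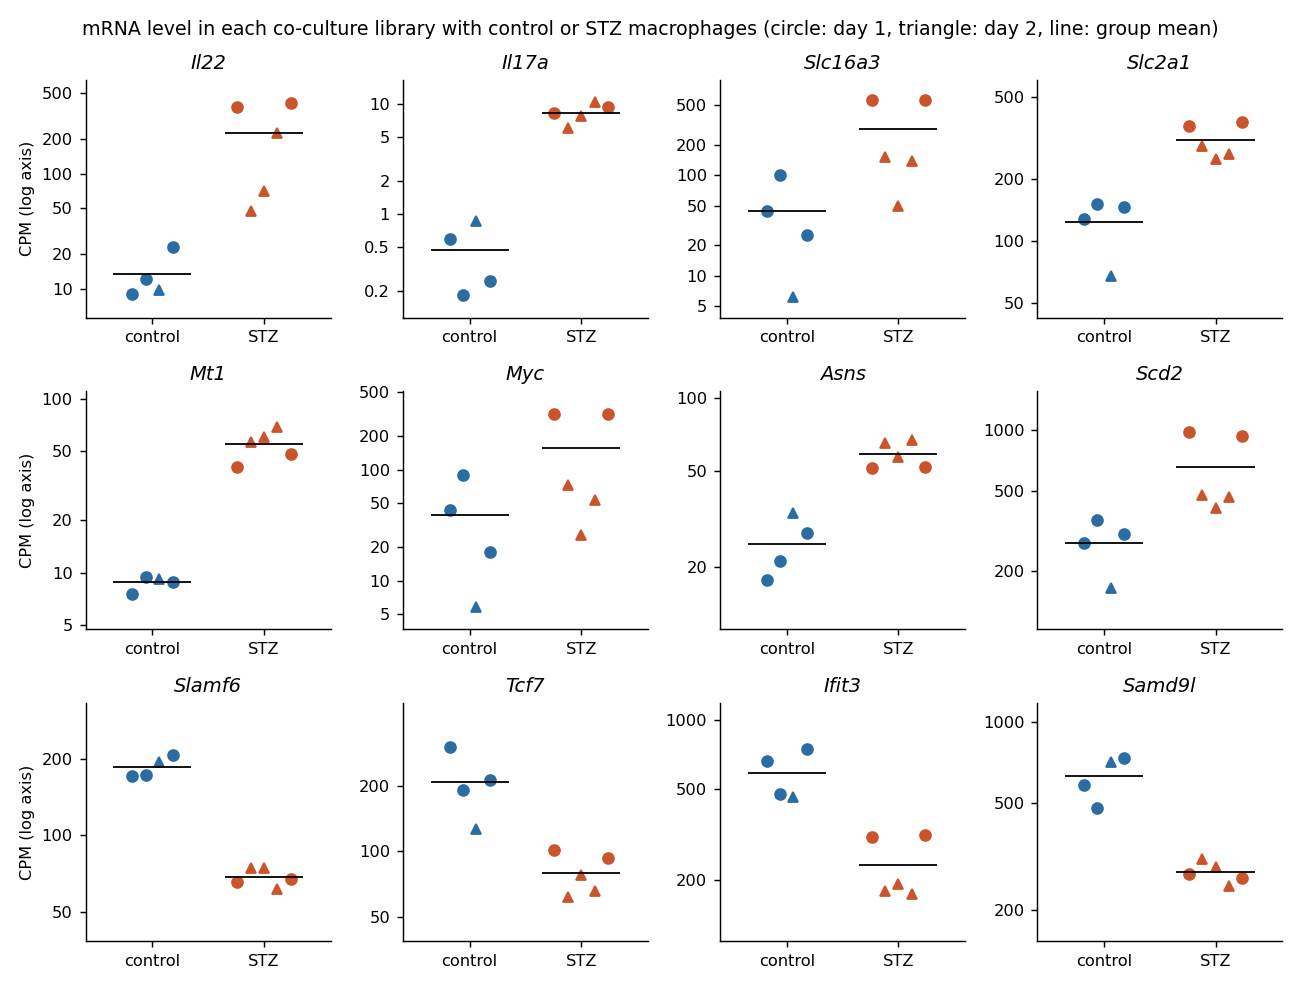
Level of 12 genes in each library (vertical axes, CPM on a log scale) with control macrophages (blue) and STZ macrophages (orange). Circles are libraries of day 1, triangles those of day 2, and lines group means. Il17a, Slc2a1, Mt1, Slamf6, Ifit3 and Samd9l did not overlap between groups, while Slc16a3 and Myc did, with STZ replicates 1 and 5 the highest at 563 CPM for Slc16a3.

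Among the HIF-1 targets outside glycolysis, Ndrg1, a classical one, was called higher by 2.13, but it was at 137 and 136 CPM in STZ replicates 1 and 5 and at 21.03 to 28.9 CPM in the other STZ libraries, within the control range of 4.55 to 43.4. Fam162a, a mitochondrial protein induced by hypoxia, rose by 2.07 and P4ha1, a collagen prolyl hydroxylase, from 117 ± 33.8 to 218 ± 67.0 CPM (log2 fold change 1.199). Mxi1, a MYC antagonist that HIF-1 induces, rose from 2.82 ± 0.618 to 9.89 ± 4.09 CPM. The core of the hypoxia response element is ACGTG. It was searched on both strands in RefSeq promoter windows (250 bases before to 50 after the start of a gene, GRCm38.p6). It was present in 25.6% of 12152 windows of all genes tested, in 28% for genes called higher and in 20.6% for genes called lower. Of 36 windows of the called HIF-1 and glycolysis genes 19 held it (52.8%). That share describes lists of known targets and not the change. The median GC content of those 36 windows was 65.0% against 60.0% for all, and a match describes letters and not a bound site. Short stretches with the match in capitals are shown for 3 of these genes because they place the element close to the start of transcription, 16 bases before it in P4ha1, 81 in Fam162a and 66 in Mxi1. They lie upstream of annotated exons at chr10:59323255-59323295 (plus strand), chr16:36071613-36071667 (minus strand) and chr19:53329322-53329376 (plus strand).
P4ha1: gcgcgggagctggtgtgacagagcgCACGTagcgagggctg
Fam162a: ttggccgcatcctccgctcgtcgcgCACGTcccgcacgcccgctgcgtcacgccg
Mxi1: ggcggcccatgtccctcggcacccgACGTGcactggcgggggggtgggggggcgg

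Myc, the driver of T cell growth and biosynthesis, was at 43.2, 90.4, 5.87 and 18.1 CPM in the control libraries and at 317, 72.6, 26.1, 53.6 and 319 CPM in the STZ libraries. The groups overlapped within the whole set and were apart on each day, with a log2 fold change of 2.82 (standard error 0.51, adjusted p = 0.0142). Of the 11 tested genes of the MYC network 2 were called higher and 2 lower. Outside that list, Ccnd3, a cyclin of G1, rose by 1.80 and Lyar, a nucleolar growth regulator, by 1.44.

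Genes of the stress response and of lipid synthesis were called higher in part. Of 23 tested genes of the integrated stress response and of serine and one-carbon enzymes, 13 were called higher and none lower, with a median log2 fold change of 1.10. With the GC correction 10 were kept. The list held 1 called gene without STZ replicate 1 or 5, and 4 without STZ replicate 4 or control replicate 1 or 4. Asns, asparagine synthetase and a standard target of ATF4, was at 17.6, 21.2, 33.5 and 27.5 CPM with control macrophages and at 51.4, 65.3, 57.0, 66.9 and 52.0 CPM with STZ macrophages. It had no overlap and a log2 fold change of 1.10 (standard error 0.16, adjusted p = 0.00835). Pycr1, which makes proline, rose by 1.51, Atf3, a stress-induced factor, by 2.13, and Mthfd2, a mitochondrial one-carbon enzyme, by 0.85. These were called in 7, 5 and 4 of the 9 fits without a library. Sesn2, which restrains mTOR under stress, rose by 2.27, and its call ended with the GC correction (adjusted p = 0.0553). Outside the list, Gcn1, which activates the amino acid sensor kinase GCN2, rose by 2.32.

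The amino acid response element TGATGNAAN, searched the same way, was present in 2.30% of promoter windows of all genes tested. It was in 2.11% for genes called higher, in 2.56% for genes called lower and in 6 of 12 windows (50%) of the called stress-response genes. That list holds known genes of the response, so its share describes the list and not the change. The stretches of Pycr1 (chr11:120643818-120643876, minus strand) and Atf3 (chr1:191183411-191183469, minus strand) are shown because both genes rose and the element lies 103 and 111 bases before their starts. It reads on the opposite strand in Atf3.
Pycr1: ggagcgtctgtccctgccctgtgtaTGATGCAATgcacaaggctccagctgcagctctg
Atf3: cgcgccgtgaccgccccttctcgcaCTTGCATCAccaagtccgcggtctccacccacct

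Of 36 tested genes of sterol and fatty acid synthesis 12 were called higher and none lower, and 8 of them were kept with the GC correction. Without STZ replicate 1, 4 or 5 or control replicate 1 or 4, 5 were called. Scd2, a desaturase that makes monounsaturated fatty acids, was at 275, 357, 163 and 305 CPM in the control libraries and at 980, 479, 411, 463 and 935 CPM in the STZ libraries. All STZ libraries were above all controls, with a log2 fold change of 1.56 (standard error 0.11, adjusted p = 0.000739). Scd1, its paralogue, rose by 1.40, Fasn, fatty acid synthase, by 2.28 and Fads2, a desaturase of polyunsaturated fatty acids, by 2.78. Mvd, a sterol enzyme, was called higher by 0.92, but the difference was 0.06 with the GC correction.

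Of 13 tested genes of creatine, arginine and polyamine metabolism 3 were called higher and 2 lower, and 3 and 1 of these calls were kept with the GC correction. Gatm, the first enzyme of creatine synthesis, rose from 11.6 ± 4.28 to 37.7 ± 9.35 CPM (log2 fold change 2.02). Ckb, a creatine kinase, was called higher by 3.79, but it was at 8.30 and 6.52 CPM in STZ replicates 1 and 5 and at 0.299 to 0.697 CPM in the other STZ libraries, within the control range of 0.024 to 1.02. Smox, which oxidises spermine, rose from 1.15 ± 0.356 to 14.4 ± 13.5 CPM (3.84). Mt1 (chr8:94179082-94180327), a metallothionein that binds zinc, was at 7.58, 9.50, 9.24 and 8.88 CPM in the control libraries and at 40.7, 56.6, 59.8, 68.8 and 48.4 CPM in the STZ libraries. Neither group varied much around its mean, and the log2 fold change was 2.50 (SE 0.16, adjusted p = 0.000739). Mt2 rose by 2.09 and Prdx5, a peroxiredoxin, by 1.22, whereas Nqo1, a quinone reductase and target of NRF2, fell from 25.1 ± 4.37 to 11.9 ± 4.74 CPM (-1.47). Of 36 redox genes 8 were called higher and 3 lower, of which 7 and 3 were kept with the GC correction.

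Genes of immediate signalling and of p53 were called in part. Of 11 AP-1 and BATF factors 5 were called higher and none lower, and 2 were kept with the GC correction. Junb was at 247 and 69.0 CPM in STZ replicates 1 and 5 and at 0.886 to 4.82 CPM in every other library, and was called in 7 of the 9 fits without a library. Of 27 NF-kB genes 5 were called higher and 1 lower, and 1 in each direction was kept with the GC correction. Of 28 activation-response genes 5 were called higher and 1 lower. Among them Ier3, an early-response gene that protects from death, rose from 4.26 ± 0.764 to 21.2 ± 4.08 CPM (log2 fold change 2.48, SE 0.17, adjusted p = 0.000739) with no overlap. Gem, a GTPase induced on activation and outside these lists, rose by 3.23. Of 25 p53 genes 4 were called higher (16%) and 2 lower (8%), near the 10.1% and 8.06% of all genes tested. Among them was Mdm2, the p53 inhibitor and target, which rose by 1.85. Bax, a death effector, was called higher by 0.65 without and lower by 0.63 with the GC correction, so its direction depends on the correction. Cdkn1a, a cell-cycle inhibitor, was above every control library in all 5 STZ libraries (198 to 426 CPM against 37.8 to 135) but did not pass the test (log2 fold change 1.54, adjusted p = 0.0614).

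Of 58 tested type I interferon-stimulated genes 40 were called lower and none higher, with a median log2 fold change of -0.70. With the GC correction 39 of the 40 were kept, and 34 members of the list did not overlap between groups. Of 30 interferon-gamma-inducible genes 13 were called lower and none higher (median -0.42), and 12 were kept. In the fits that left out 1 library, 26 to 45 genes of the first list and 8 to 15 of the second were called lower. The count of 26 was without STZ replicate 1, and that of 8 without STZ replicate 1 or 4 or control replicate 3 or 4. Both lists had a negative median on each day, -0.63 and -0.77 for the first and -0.27 and -0.70 for the second on days 1 and 2.

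Samd9l (chr6:3372257-3399572, minus strand), an antiviral restriction factor, was at 586, 481, 713 and 739 CPM in the control libraries and at 273, 311, 289, 246 and 263 CPM in the STZ libraries. The groups were far apart, and it fell by 1.23 on the log2 scale (SE 0.14, adjusted p = 0.00411). Ifit3, whose product binds antiviral signalling proteins, was at 661, 476, 462 and 743 CPM against 307, 178, 192, 173 and 313 CPM, and fell by 1.15 (adjusted p = 0.00496). Both STZ libraries of day 1 were higher than those of day 2, and all were below the controls. Ifit3b, a near copy of Ifit3, fell by 1.17, and reads of these 2 genes may have been split between them.

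Other antiviral genes that fell were Oas2, which makes a signal for RNA decay (-1.01), Ifi44 (-1.28), the DNA sensor family member Ifi208 (-1.12) and Lgals9, a galectin (-0.91). Among the interferon-gamma-inducible GTPases that attack vacuoles of pathogens, Iigp1 fell from 546 ± 200.1 to 336 ± 70.4 CPM (-0.90) and Ifi47 from 1380 ± 313 to 796 ± 34.7 CPM (-0.84). Irgm2 fell by 0.83, Irgm1 by 0.71 and Gbp9 by 0.74. Families such as Ifi20x, Gbp and Irgm hold similar copies, so values of single members are less certain than the count. The remaining members did not pass the test and are the grey points in the plot of both lists, some of them above 0.

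**Figure D4:**
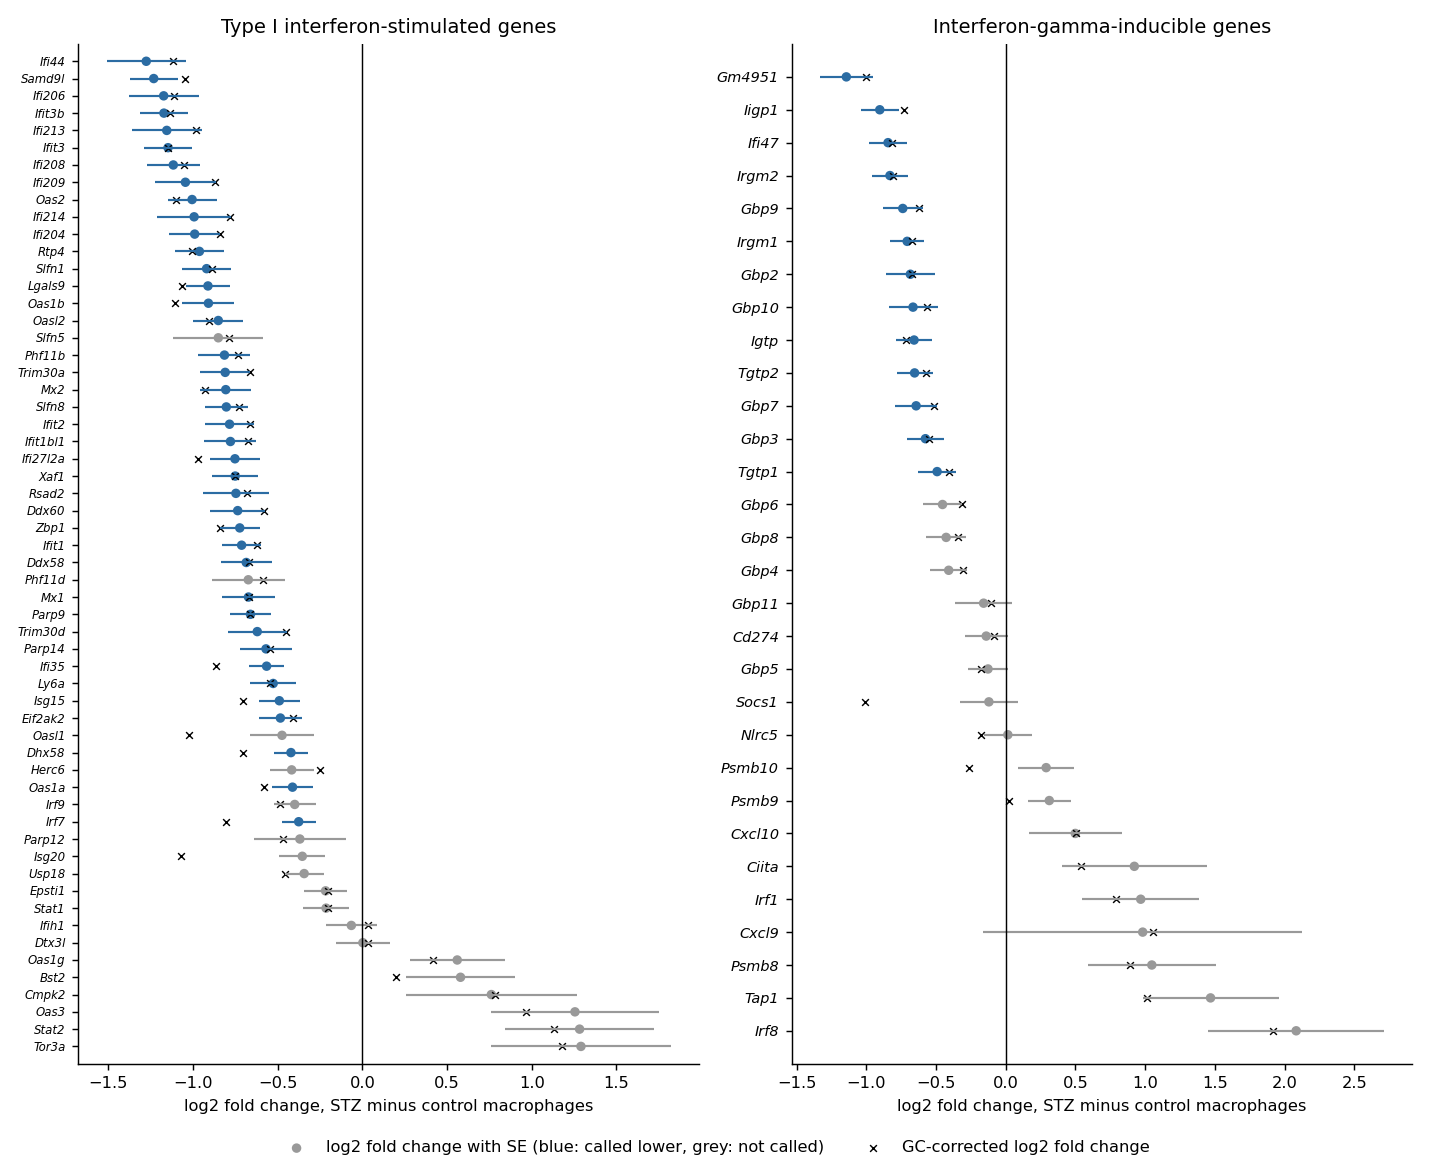
Log2 fold change of each tested type I interferon-stimulated gene (left panel) and interferon-gamma-inducible gene (right panel), STZ minus control macrophages, as points with lines of 1 standard error on each side. Blue points were called lower (40 and 13 genes), grey points were not called, and crosses are values with the GC correction. Ifi44 and Samd9l stood at -1.28 and -1.23.

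The interferon-stimulated response element, searched on both strands as GAAA, any 2 bases and GAAA, was present in 3.36% of promoter windows of all genes tested, in 8.63% for genes called lower and in 2.86% for genes called higher. Of 32 windows of the called type I interferon-stimulated genes 22 held it (68.8%), and 8 of 10 windows of the called interferon-gamma-inducible genes (80%). These lists hold known interferon targets, so the share describes the lists and not the change. Stretches of 4 genes that fell are shown with each match in capitals. Those of Ifit3 (chr19:34583348-34583441) and Ifit3b (chr19:34607744-34607837) hold 2 matches on the opposite strand and are letter for letter the same. Ifi208 (chr1:173673582-173673641) and Irgm2 (chr11:58214888-58214947) hold 1 match each, 58 and 64 bases before their starts. All 4 are on the plus strand.
Ifit3: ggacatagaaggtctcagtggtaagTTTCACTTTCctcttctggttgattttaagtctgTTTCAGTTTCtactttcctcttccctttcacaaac
Ifit3b: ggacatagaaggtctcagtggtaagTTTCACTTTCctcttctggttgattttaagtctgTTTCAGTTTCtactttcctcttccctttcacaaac
Ifi208: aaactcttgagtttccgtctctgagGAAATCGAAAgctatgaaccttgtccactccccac
Irgm2: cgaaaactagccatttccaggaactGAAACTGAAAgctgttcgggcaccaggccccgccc

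Antigen-presentation genes split. Of 16 tested genes of MHC class I presentation 3 were called higher and 6 lower. Erap1, which trims peptides, fell by 0.66 and the non-classical genes H2-T24 and H2-M3 fell by 0.74 and 0.62 on the log2 scale, while H2-Q6 rose by 2.08. H2 genes are near copies of each other, and the labels do not say how reads were shared among them. Of 24 genes of Toll-like and interleukin 1 receptor signalling 3 were called higher and 5 lower. Tlr7, a sensor of single-stranded RNA, fell from 62.5 ± 15.7 to 19.6 ± 2.62 CPM (-1.55, adjusted p = 0.00385), Tlr6 by 1.09 and Tlr1 by 0.91, whereas Tirap, an adaptor of these receptors, rose by 2.32.

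Of 25 tested naive and quiescence genes 7 were called lower and none higher, all 7 were kept with the GC correction, and 6 were among the stable genes. Without control replicate 2, 13 were called lower. Tcf7, the factor TCF-1 of naive and memory-like T cells, was at 304, 193, 126.3 and 215 CPM with control macrophages and at 101, 61.7, 77.9, 65.7 and 92.9 CPM with STZ macrophages. No STZ library reached a control library, and it fell by 1.14 (SE 0.17, adjusted p = 0.00882). Dapl1, which marks naive T cells, fell from 130 ± 29.6 to 42.7 ± 20.5 CPM (log2 fold change -2.11), Btg2, an antiproliferative factor, by 0.84, Nsg2 by 1.01 and Slfn2, which maintains quiescence, by 0.72. S1pr1, the receptor for exit from lymph nodes, fell by 0.71 and was called in 3 of the 9 fits without a library.

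The SLAM family, homophilic receptors that stabilise contacts between lymphocytes, fell in part. Of 10 tested members 4 were called lower and none higher, and all 4 were stable. Slamf6 (chr1:171917515-171953170) was at 170, 172, 194 and 207 CPM in the control libraries and at 65.5, 74.5, 74.1, 61.6 and 67.6 CPM in the STZ libraries. Both groups were tight, and it fell by 1.46 on the log2 scale (SE 0.11, adjusted p = 0.000761). Cd84 fell by 0.90, Cd48, the ligand of CD2, by 0.64 and Ly9 by 0.60.

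Of 16 tetraspanins, which organise receptors in the membrane, 3 were called higher and 5 lower. Tspan32 was at 191, 184, 110 and 221 CPM in the control libraries and at 53.9, 47.1, 41.8, 40.0 and 55.6 CPM in the STZ libraries, and fell by 1.67 (SE 0.14, adjusted p = 0.00107). Cd9 fell by 0.65 and Cd37 by 0.53, while Cd63, which macrophages carry as well, rose from 0.258 ± 0.339 to 2.07 ± 1.49 CPM.

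Of 37 tested T cell receptor components and proximal signalling genes, 10 were called lower and 1 higher, and 9 of the lower calls were kept with the GC correction. In the fits that left out 1 library 4 to 13 were called lower, with 4 without STZ replicate 1 or 4. Ptprc, the phosphatase CD45, fell by 0.71, Cd247, the zeta chain of the receptor complex, by 0.58 and Trat1, an adaptor of that complex, by 0.82. Cd28, the main costimulator, fell by 0.65 and Lck, the kinase that starts the signal, by 0.40. These were called in 5 and 7 of the 9 fits without a library. Cd7, a surface protein of T cells, fell by 1.53. Zap70, the kinase recruited to the receptor, was the 1 gene called higher (1.91). It stood at 163 and 139 CPM in STZ replicates 1 and 5 and at 12.95 to 22.9 CPM in every other library, and its call ended with the GC correction (adjusted p = 0.210).

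Markers of the labelled cell type were present in all libraries. Summed over 12 CD4 T cell markers, libraries held 15877 to 23177 CPM with control macrophages and 12784 to 15800 CPM with STZ macrophages. The sum was lower with STZ macrophages (log2 difference -0.38, two-sided exact permutation test over libraries, p = 0.0159, the smallest that 4 against 5 libraries can give, and 0.0423 after Benjamini-Hochberg adjustment over 8 marker lists). Unlike the tests of genes, the permutation tests of all marker sums had no term for collection day, over which the groups were unevenly split. Of these 12 markers 8 were called lower and none higher, and 2 without STZ replicate 1 or 4. Among the 8 was Trbc2, a constant region of the receptor beta chain, which fell by 0.57. Cd4 itself was at 999 ± 60.8 and 869 ± 54.7 CPM (-0.23, adjusted p = 0.101). In bulk samples, fewer cells of a type and less RNA per cell cannot be told apart.

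Of 44 tested DNA replication genes 13 were called lower and 3 higher, and of 41 mitosis genes 13 lower and 3 higher. With the GC correction 11 and 8 of the lower calls were kept, and without STZ replicate 1, 4 or 5 the lists held 4 and 3 genes called lower. Nuf2, a kinetochore protein, fell by 0.75, Ttk, a checkpoint kinase, by 0.68 and Nusap1, a spindle protein, by 0.63. Rfc4, which loads the replication clamp, fell by 0.65, Prim1, the primase, by 0.58 and Cdc45, part of the replicative helicase, by 0.50. Mki67, the standard marker of cycling cells, was at 390 ± 61.8 and 310 ± 58.2 CPM and did not pass the test (log2 fold change -0.44, adjusted p = 0.0684).

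Of 44 proteasome genes 15 were called lower and 2 higher, and 0 to 18 were called lower in the fits that left out 1 library, with 0 without STZ replicate 1. Psma2, Psma4 and Psme2 fell by 0.57, 0.55 and 0.55 on the log2 scale and lost their calls without that library (adjusted p 0.0507, 0.0523 and 0.0596). Of 84 ribosomal protein genes 6 were called lower and 1 higher, with a median log2 fold change of -0.21, and Rpl7 fell by 0.49 but lost its call without STZ replicate 1. Of 75 nuclear genes of the respiratory complexes 8 were called lower and 3 higher, and with the GC correction 25 were called lower and none higher. Ndufa4 fell from 291 ± 51.7 to 180 ± 64.3 CPM (-1.02). For both lists the share called lower without the correction is near that of all genes tested. With the correction 21 of the 84 ribosomal protein genes were called lower as well, and 11.4% of all genes tested.

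Genes of extracellular matrix, proteases and the cytoskeleton changed as well. Of 18 tested collagens and collagen-modifying enzymes 10 were called higher and 1 lower, and 8 of the higher calls were kept with the GC correction. Without STZ replicate 1, 2 or 5, 4 were called higher, and 6 without STZ replicate 4 or control replicate 1 or 4. Col6a2, a chain of collagen VI, rose from 0.196 ± 0.149 to 3.22 ± 2.39 CPM (log2 fold change 4.58, adjusted p = 0.00441), and Plod3, a collagen lysyl hydroxylase, from 6.86 ± 4.43 to 23.5 ± 14.2 CPM (2.15). Lum, a proteoglycan of fibroblasts, was at 0.229, 0.0457, 0.455 and 0.275 CPM in the control libraries and at 9.14, 2.34, 1.55, 6.94 and 13.1 CPM in the STZ libraries. Col6a2 and Lum had low levels in all libraries, and stromal cells express both. The endothelial markers Cdh5 and Emcn had 0 counts in all 9 libraries, and the summed stromal and endothelial markers were lower with STZ macrophages (218.9 ± 38.0 and 95.7 ± 12.6 CPM, exact permutation p = 0.0159, adjusted 0.0423), through Pecam1. Of 6 tested members of that list 5 had a positive log2 fold change (median 1.08), 1 was called higher and 1 lower. Some fibroblast genes of the same list, named after their values were seen, had higher values. Dcn had 0 counts over the control and 1008 over the STZ libraries, most of them in STZ replicate 4 (23.8 CPM) and STZ replicate 2 (3.89 CPM). Col3a1 had 0 and 258 counts, and Col1a2 was at 0.137 ± 0.119 and 1.61 ± 1.08 CPM. The part of stromal RNA in the collagen values was not tested.

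Of 26 proprotein convertases, cathepsins and protease inhibitors 9 were called higher and 4 lower, and 3 were called higher without STZ replicate 1 or 5. Furin, which activates secreted precursors such as transforming growth factor beta, was at 3.07, 4.36, 1.15 and 3.72 CPM in the control libraries and at 108, 4.74, 3.75, 5.24 and 83.2 CPM in the STZ libraries. STZ replicates 1 and 5 carried most of the difference, and the log2 fold change was 4.68 on day 1 and 1.99 on day 2. Adam9, a membrane protease, rose by 1.71, Ecm1, a matrix protein that T helper 2 cells secrete, by 1.89 and Serpine2, a thrombin inhibitor, by 2.79, the last called in 7 of the 9 fits without a library.

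Tgm2 (chr2:158116402-158146436, minus strand), a transglutaminase that cross-links proteins, was at 43.4, 72.3, 93.7 and 78.4 CPM with control macrophages. With STZ macrophages it was at 621, 451, 349, 384 and 628 CPM, with no overlap, a log2 fold change of 2.79 (standard error 0.28, adjusted p = 0.00344). Of 41 actin and motility genes 7 were called higher and 8 lower. Tln1, the integrin activator talin, rose by 1.95 and was highest in STZ replicates 1 and 5 (581 and 540 CPM, against 31.6 to 159 CPM in every other library). Dock2, which drives lymphocyte migration, fell by 0.67 and Arhgap25, a Rac inhibitor, by 0.76. Evl, an actin regulator, fell by 0.39, and by 1.5 with the GC correction. It was called in 2 of the 9 fits without a library. Of 26 genes of S100, annexin, galectin and related proteins 4 were called higher and 7 lower. Lmna, a nuclear lamin, rose by 3.09 and Crip1 fell by 0.81. Emp3, a membrane protein, fell by 1.37, more on day 1 than on day 2 (difference 0.97, adjusted p = 0.0324, and 0.376 with the GC correction).

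Further genes were named for a small p or a large change outside the functional lists. Lrrk1, a kinase, rose from 2.17 ± 0.428 to 10.7 ± 1.92 CPM (log2 fold change 2.14), and P2rx7, the ATP-gated channel of T cells, by 1.64. Vps37b, a sorting protein of endosomes, rose by 3.36 and Abcb9, a lysosomal peptide transporter, by 2.76. Those that fell were Selenop, a selenium carrier (152 ± 45.9 to 64.8 ± 25.1 CPM), Hemgn (-1.25) and Drc1 (-1.61). Ighm, the heavy chain of IgM and a B cell marker, was at 693, 583, 460 and 708 CPM in the control libraries and at 160, 164, 180, 145 and 173 CPM in the STZ libraries, and fell by 1.81 (SE 0.14, adjusted p = 0.000761). Pecam1, the adhesion molecule CD31 that naive T cells share with endothelium, fell from 217 ± 38.2 to 75.9 ± 11.9 CPM (-1.44).

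The effect was also estimated within each day, from group means fitted separately for each day. Within day 1, 3365 genes were called (22.6% of the genes tested) and within day 2, 2453 (16.5%), and the difference between days was called for 1802 genes (12.1%). The day 2 estimate and the difference rest on control replicate 3 as the only control library of that day, which was assumed to vary like the others. The day 1 count was 948 and 1955 without STZ replicates 1 and 5 and 2014 and 2207 without control replicates 1 and 4. The day 2 count was 1526 without STZ replicate 4, and that of the difference 906, 1102 and 1130 without STZ replicates 1, 2 and 4.

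Genes with the smallest p for the difference were often low in control replicate 3. Cdc37, a kinase chaperone partner, was at 54.2 CPM there and at 247 to 296 CPM in the other controls and 278 to 341 CPM in the STZ libraries. Nop58, a nucleolar protein, and Sf3b4, a splicing factor, were likewise lowest in that library (55.3 and 12.2 CPM). Their log2 fold changes were near 0 on day 1 (0.12, 0.03 and 0.10 for Cdc37, Nop58 and Sf3b4) and 2.55, 2.15 and 3.63 on day 2. A contrasting pattern was that of Junb, Furin, Zap70, Stat3 and Aldoc, with larger effects on day 1, where STZ replicates 1 and 5 were the STZ libraries.

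**Figure D5:**
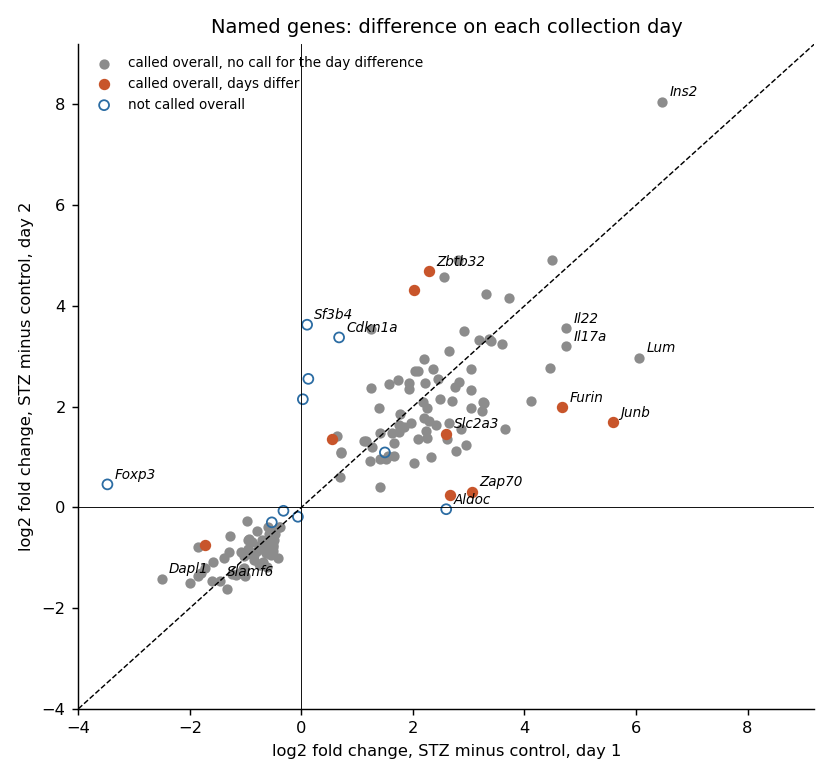
Log2 fold change of the named genes on day 1 (horizontal axis) and on day 2 (vertical axis), STZ minus control macrophages, with equal values on the dashed line. Grey points were called over both days, orange points also for the difference between days, and open points were not called over both days. Foxp3 stood at -3.48 on day 1 and 0.46 on day 2, and Zap70 at 3.07 and 0.31.

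Markers of other cells that the cultures could hold were measured in the same libraries. The sum of 29 macrophage markers was 834.9 ± 79.6 CPM with control and 827.5 ± 146 CPM with STZ macrophages (range 755 to 944 and 707 to 1040, exact permutation p = 0.825), and most of it came from Ctss and Ctsb, which T cells also express. Ctss fell by 0.66. Of 22 tested macrophage markers 6 were called higher and 2 lower. The log2 fold change was positive for 19 of the 22, with a median of 1.39 against 0.06 for all genes tested. C1qc, a complement chain of tissue macrophages, was at 0.163 to 0.458 CPM in the control libraries and at 1.66, 1.36, 5.30, 5.54 and 1.58 CPM in the STZ libraries, a log2 fold change of 3.20 that lost its call without STZ replicate 1 (adjusted p = 0.0507). Sirpa, an inhibitory receptor of myeloid cells, rose by 2.49. Csf1r, the receptor that macrophages depend on, was called higher by 2.48, and its call ended with the GC correction (adjusted p = 0.0544). Mpeg1, a pore-forming protein, fell by 1.39. Spi1 and Mertk had 0 counts in all control libraries.

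Among MHC class II and dendritic cell genes, H2-Eb1 rose from 0.643 ± 0.361 to 1.96 ± 0.275 CPM and was called in 4 of the 9 fits without a library, while the sum over 18 genes did not pass (798.5 ± 164 and 628 ± 53.1 CPM, exact permutation p = 0.0952). Most of that sum was Ccr7 (685.6 and 504.06 CPM), so it says little about the other members. Of 11 tested genes of the list 6 had a positive log2 fold change, 2 were called higher and none lower. H2-Aa (0.531 ± 0.382 and 2.06 ± 1.73 CPM) had a higher mean with STZ macrophages, and H2-Oa (9.24 ± 0.292 and 6.75 ± 0.883 CPM) a lower one. Summed B cell markers fell from 619.7 ± 115 to 174 ± 13.6 CPM (exact permutation p = 0.0159, adjusted 0.0423), almost wholly Ighm, with Pax5 at 0 counts in the control libraries. CD8 T cell and natural killer markers summed to 312 ± 238 and 399 ± 119 CPM (log2 difference 0.57, p = 0.302, exact permutation test), with 660.5 CPM in control replicate 3. Without that library the log2 difference was 1.02 (exact permutation p = 0.0357, adjusted 0.0571), and without control replicate 1 it was 0.23. Nkg7 made up most of these sums (234 ± 177 and 273 ± 98.7 CPM). Of 8 tested genes of the list 4 had a positive log2 fold change, and 0 were called. The CD8 genes Cd8b1 (17.4 ± 3.25 and 11.7 ± 1.16 CPM) and Cd8a (4.65 ± 3.56 and 3.35 ± 2.41 CPM) had lower means with STZ macrophages. So did Klrb1c (0.176 and 0.102 CPM). Means were higher for Klrk1 (24.7 ± 33.1 and 46.03 ± 16.1 CPM), Klrd1 (22.7 ± 15.2 and 39.2 ± 4.28 CPM), Klrc1, Klre1 and Gzmk. Klrc1 was at 1.14 to 2.44 CPM in the control libraries of day 1 and at 17.3 to 26.8 CPM in the STZ libraries. Control replicate 3, at 24.96 CPM, was within the STZ range. A list of 24 acinar, ductal, erythroid, mast cell and neutrophil markers summed to 24.8 and 24.5 CPM in STZ replicates 1 and 5 and to at most 4.61 CPM in every other library (exact permutation p = 0.254). Mpo, a granule enzyme of myeloid precursors named after its values were seen, was at 10.8 and 12.6 CPM in those libraries and at 0 in the others. The part of these cells in the differences was not tested.

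Islet hormone RNA was present in part of the STZ libraries. Ins2, an insulin gene of beta cells, had 2 counts over the 4 control libraries and 2135 counts over the 5 STZ libraries. The ratio of pooled CPM was 888 (95% exact interval 246 to 7338, counting error only), and the gene was called in 4 of the 9 fits without a library. STZ replicates 2, 4 and 3 held 32.5, 6.36 and 1.66 CPM, and STZ replicates 1 and 5, of day 1, 0.281 and 0.25 CPM. The summed endocrine markers were 158 and 145 CPM in STZ replicates 2 and 4 and at most 3.29 CPM in any other library (exact permutation p = 0.0794).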

How the data were processed

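RNA of sorted CD4+ T cells was measured in 9 co-culture libraries, made with the SMARTer Ultra Low kit, which does not mark strand, and sequenced in pairs on a NovaSeq, per the labels' protocols. Reads were aligned to the Ensembl GRCm38 primary assembly, per the labels' protocols, and DESeq2 is named without a version in the submitters' processing notes. No aligner, counter or annotation release is named in those labels. The authors deposited a table of estimated counts per gene, of which 11.0% of values were not whole, and a log2 table of adjusted, normalized values whose adjustment is not stated. Antisense and overlapping genes cannot be told apart in these counts.

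Estimated counts were rounded to whole numbers, filtered with filterByExpr (14881 of 55774 genes kept), scaled by TMM and tested with edgeR 4.0.16 (R 4.3.3, robust quasi-likelihood test, collection day as a term, 6 residual degrees of freedom, Benjamini-Hochberg adjustment). CPM values of genes use the library total times the TMM factor. Depth was 30.6 to 61.3 in units of 1000000 counts a library. The spread between libraries, a common biological coefficient of variation of 0.345, limited precision. Effects within days came from group means fitted separately for each day. The GC correction was a loess offset (span 0.3) on exon GC content from GENCODE vM21, which 97.3% of tested genes had. Alternatives were other scalings, filters, DESeq2 1.42.0, limma 3.58.1 on the deposited log2 table, all 13 libraries, day 1 alone, a replicate block and fits without each library. Scripts were tested on simulated data. Promoters came from RefSeq (GRCm38.p6), matched for 9583 of 14772 symbols. Gene coordinates are those of GENCODE vM21.

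Named genes were the 15 largest changes in each direction among called genes of at least 3 log2 CPM, up to 6 called members per direction of each list by smallest p, the 10 smallest p outside the lists, the 10 smallest p for the difference between days, and 8 genes named in every case. The text gives part of them, and some genes are not reported here. The comparison, the lists and the named genes were chosen with earlier results of these data known. The 4 libraries of T cells without macrophages entered only the fit with 13 libraries.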

Additional observations from a re-analysis of the deposited data

Results flagged for a closer look

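In 11 sets of values a library stood far from the others of its group, by a test that chance passes in about 1 in 20 groups. The test was run in both groups on the 163 genes named in the text and on 8 marker sums. Chance alone could give this many sets. Among the control libraries, control replicate 3 was high for Ccl2 (1.51 CPM), Mt2 (5.29 CPM) and Cd63 (0.766 CPM) and held the counts of Ins2 (0.0479 CPM). It was low for Cd7 (15.1 CPM) and for the summed dendritic cell and MHC class II genes (555.5 CPM), of which Ccr7 gave 448.5 CPM. Control replicate 2 was high for Sesn2 (7.35 CPM) and low for Mki67 (298.5 CPM), and control replicate 4 was high for C1qc (0.458 CPM). STZ replicate 1 was high for Junb (247 CPM) and STZ replicate 2 for Ins2 (32.5 CPM).

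For 15 of the 163 genes named in the text the effect of STZ macrophages differed between collection days. It was tested as the difference in 1 model over the 9 libraries (edgeR). Some of these genes were named for a small p in this same test, so their count is not a result about the named genes. Over all genes tested the difference was called for 1802 (12.1%). The log2 fold change was lower on day 2 by a difference of -2.43 for Stat3, -1.14 for Slc2a3, -3.88 for Junb, -2.76 for Zap70, -2.68 for Furin and -2.63 for Aldoc. It was higher on day 2 by 0.81 for Lif, 2.41 for Zbtb32, 0.97 for Emp3, 2.30 for Abcb9, 2.70 for Cdkn1a, 2.12 for Nop58, 2.43 for Cdc37, 3.52 for Sf3b4 and 3.93 for Foxp3. The difference lost its call with the GC correction for Lif (adjusted p = 0.165) and Emp3 (adjusted p = 0.376) and kept it for the other 13. All of these rest on 1 control library on day 2.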

How the results depend on the processing

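The number of called genes, 2698 with all libraries, depended on the model. It was 5580 with DESeq2, 158 without the day term, 51 with all 13 libraries, 1531 with the day 1 libraries only and 46 with limma on the authors' log2 table. It ranged from 585 to 3375 when 1 library was left out, and from 662 to 3526 when the GC correction was added to those fits (1454 without control replicate 4, 1511 and 1015 without STZ replicates 4 and 5). The correlations of deviations from the group mean between same-numbered libraries were 0.158, -0.208, 0.512 and 0.142 for replicates 1 to 4. Replicates 2 and 4 lay on different collection days in the 2 groups. These values therefore cannot show whether replicate numbers pair the libraries. With a replicate block edgeR called 0 genes, at an unadjusted p under 0.05 for 1252 higher and 388 lower genes with the day term, 994 and 652 without it, and 866 and 821 with the day term and the GC correction. The share of calls that were higher was 55.5% and became 48.5% with the size factors of RLE, 38.8% with the GC correction, 40.5% without the day term and 68.7% without control replicate 3. The difference between days was called for 1 gene with all 13 libraries and for 906 to 2222 without 1 library. Within day 1 the counts were 34 and 948 to 4690, and within day 2, 0 (edgeR, with 1338 higher and 874 lower genes at an unadjusted p under 0.05) and 1526 to 3285. Without control replicate 3 the day 2 effect and the difference between days could not be estimated. Of the list genes 461 were called, 31 with all 13 libraries, 60 without the day term, 161 to 527 without 1 library and 166 to 578 with the GC correction as well (290 without control replicate 4, 295 and 242 without STZ replicates 4 and 5). Log2 differences of summed markers without 1 library were -0.112 to 0.0354 for macrophage markers, where the sign turned. They were -1.94 to -1.74 for B cell markers, mostly Ighm, and -1.30 to -1.10 for stromal and endothelial markers, mostly Pecam1. For CD4 T cell markers they were -0.47 to -0.28. The smallest p of these tests rises with fewer libraries. Of the 153 called genes described, 147 were kept with the GC correction, 123 with it and in every fit without 1 library, 46 without the day term, 32 with all 13 libraries, 114 of 152 on day 1 alone and 28 of 144 in the authors' table. The sign turned for Mvd (-0.062) and Sf3b4 (-0.23) with the GC correction without control replicate 3. It turned for Il2ra without the day term (0.12), with the block without it (0.24) and with the GC correction without control replicate 3 (0.00594). For Bax it was -0.63 with the GC correction, -0.65 with the block as well, and -0.71 to -0.48 with the correction and 1 library left out (-0.642 and -0.61 without control replicates 2 and 4, -0.643, -0.636 and -0.64 without STZ replicates 2, 3 and 4). The causes were not tested. The GC correction without single libraries, the GC-corrected difference between days, and the lists with all 13 libraries or without the day term were chosen after seeing the data.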
